A study of Mus musculus with 6 samples.

Results

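The genes described are the matrix metalloproteinases (*Mmp*), the ADAM and ADAMTS proteinases, the ADAMTS-like proteins and the tissue inhibitors of metalloproteinases (*Timp*), chosen by gene symbol alone: 68 of the 17556 genes in the expression table. They were measured by bulk RNAseq of left ventricles at 4 days post injury (dpi), the injury being permanent ligation of the left anterior descending artery in mice 6 to 10 weeks old. There were 3 ventricles in each group. All 6 mice carried 2 floxed *Yap* alleles and 1 floxed *Wwtr1* allele, and all ate a tamoxifen citrate diet from the time of surgery. The Cre-positive mice also carried MerCreMer, a Cre that tamoxifen switches on, inserted at the endogenous *Postn* (periostin) locus. The Cre-negative mice were siblings with wild-type *Postn*, so the groups share the floxed alleles and the diet and differ in the Cre insertion, whose own effect cannot be told apart from the recombination it brings about. The driver acts only in cells that use the *Postn* promoter, chiefly myofibroblasts, whereas the RNA came from the whole ventricle.

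These enzymes remodel the scaffold around cells. MMPs are zinc proteinases that are made as inactive precursors and cut collagens, gelatin, elastin and other matrix proteins. ADAMs sit in the membrane and shed the outer parts of receptors and growth factors, ADAMTS enzymes are secreted and trim procollagens and proteoglycans, and ADAMTS-like proteins resemble them without the catalytic domain. TIMPs bind the active site of these enzymes. In an infarcted heart, proteinases of entering leukocytes and of resident fibroblasts clear dead muscle while a scar is laid down.

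Depth ranged from 13177888 to 14827579 estimated counts per ventricle. Cre-negative replicate 1 stood apart: it held the highest or the lowest of the 6 normalized counts for 62.9% of all 13817 genes tested and for 42 of the 57 members tested (73.7%), and in the other 5 ventricles these shares were 23.6% to 38.2% of all genes and 15.8% to 36.8% of members. *Yap1* (1422 to 1550 normalized counts in Cre-negative and 1439 to 1619 in Cre-positive ventricles) and *Wwtr1* (1466 to 1620 and 1562 to 1664) overlapped between the groups in whole-ventricle RNA, where counts of a whole gene do not show the removal of exons in a subset of cells. *Postn* had 12182, 24690 and 26918 normalized counts without Cre and 12708, 14270 and 13514 with Cre, so the groups overlapped, Cre-negative replicate 1 being the lowest of the 6 (log2 fold change −0.66, SE 0.27, edgeR adjusted p = 0.714). Per 100 TPM of *Col1a1*, a ratio chosen after the values were seen, *Postn* was at 29.1, 37.5 and 45.7 TPM without Cre and at 16.1, 23.1 and 18.6 TPM with Cre. Heart muscle genes of the cardiomyocyte list summed to 30704 to 41999 TPM, with the highest sum in Cre-negative replicate 1. The lung markers *Sftpc* and *Sftpb* were at 0.36 TPM or less, whereas *Scgb1a1*, an airway gene, was at 66.3 TPM in Cre-positive replicate 3 and at 1.64 TPM or less in the other 5.

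*Timp1*, *Timp2*, *Mmp2*, *Mmp14* and *Adam15* were the most abundant members. A level here is in TPM, a share of all transcripts that is corrected for gene length, so levels may be compared between genes. Between groups, normalized counts (scaled by the TMM method) are used for the tests, because on the TPM scale the median of all genes tested was itself 0.109 higher with Cre (limma on log2(TPM + 1)). The mean over the 6 ventricles was 448.6 TPM for *Timp1*, 254.0 TPM for *Timp2*, 172.7 TPM for *Mmp2*, 172.0 TPM for *Mmp14*, 151.0 TPM for *Adam15*, 110.1 TPM for *Adamtsl5* and 103.1 TPM for *Timp3*. The inhibitor *Timp1* led in all 6 ventricles, and below *Timp2* the order was not fixed: *Mmp2* and *Mmp14*, for instance, changed places between ventricles. *Adam8*, *Mmp23*, *Adamts2*, *Adam9* and *Mmp15* completed the 12 highest, at 62.1 to 75.5 TPM, and these 12 genes held 75.3% to 77.8% of the summed TPM of all 68 members. At the other end, 22 of the 57 tested members averaged under 5 TPM.

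**Figure D1:**
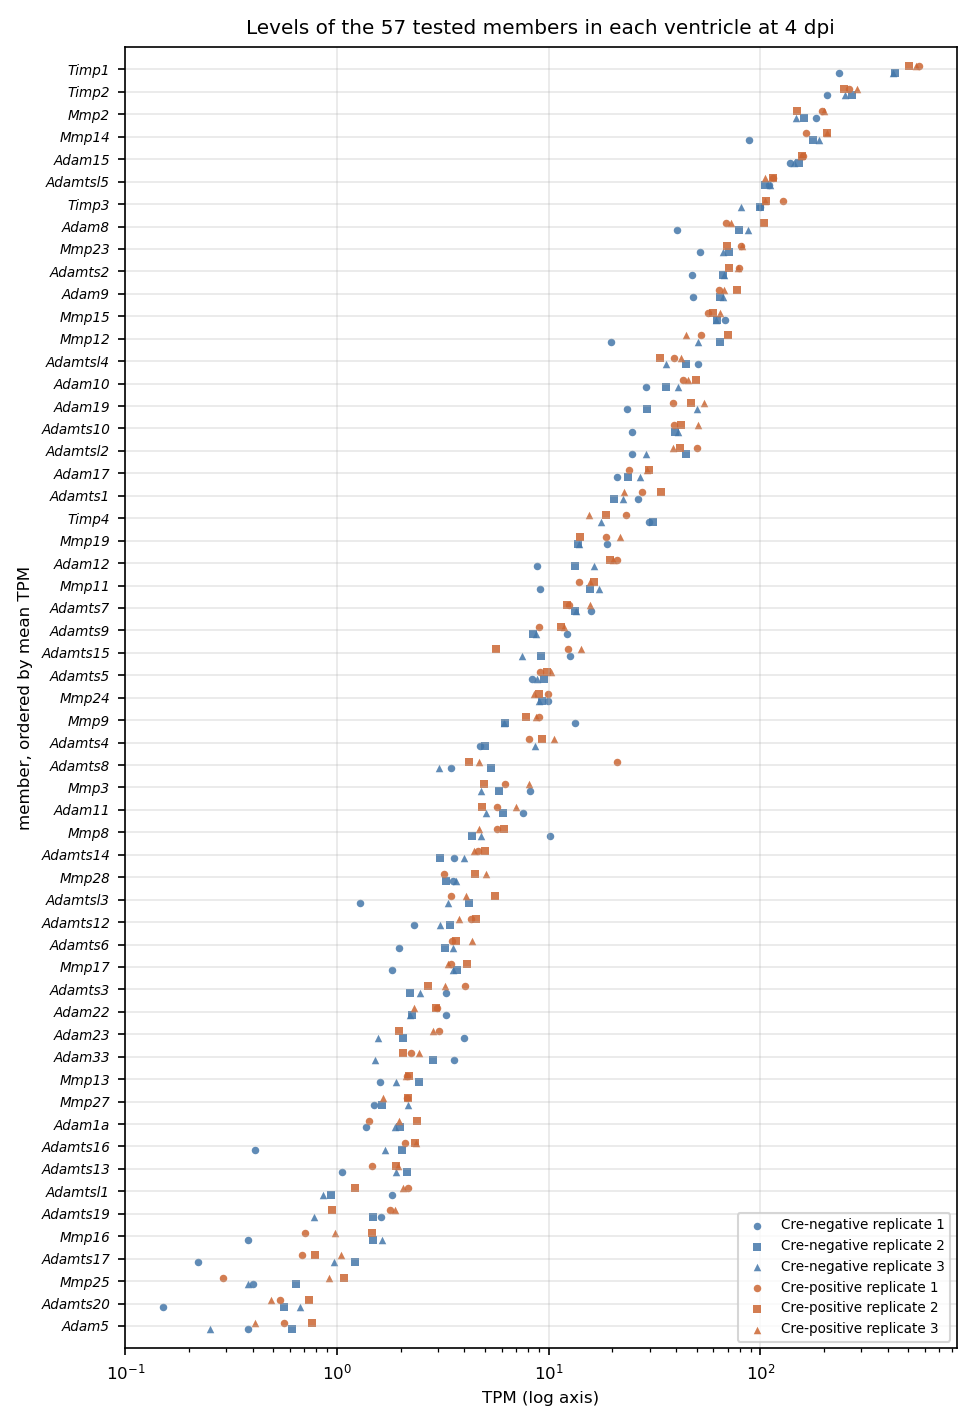
TPM (log axis) of each of the 57 tested members in each ventricle, members ordered by their mean. Points are single ventricles, blue for Cre-negative and orange for Cre-positive, with a circle, square and triangle for replicates 1, 2 and 3. *Timp1* is at the top with 235.9 to 562.2 TPM, and the blue circle of Cre-negative replicate 1 lies away from the other points in many lines.

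Of the 68 members, 57 passed the filter on low counts. None of the 57 had an adjusted p under 0.05 in edgeR's quasi-likelihood test with Benjamini-Hochberg adjustment over all genes tested, where 0.00724% of genes did. DESeq2's Wald test also called 0 members, against 0.0362% of all genes. At an unadjusted p under 0.05, edgeR had 4 members higher in Cre-positive ventricles (7.02% of members, against 2.85% of all genes in that direction) and 0 lower (against 2.98%). The 4 were *Adam12*, *Adamts12*, *Adam10* and *Timp1*, each with an adjusted p of 0.714. In normalized counts, 7 members had every Cre-positive ventricle above every Cre-negative ventricle (12.3%, against 7.53% of all genes) and 1, *Mmp15*, the reverse (1.75%, against 6.87%). Fold changes were above 0 for 40 of the 57 members (70.2%, against 51.2% of all genes), with a median log2 fold change of 0.105, against 0.006 over all genes tested. That median was 0.043 without Cre-positive replicate 3 and 0.175 without Cre-negative replicate 1. This split depends on the scaling: it was 37 of 57 members (64.9%, against 49.4% of all genes) with DESeq2's size factors and 48 (84.2%, against 73.1%) by limma on log2(TPM + 1). They ran from −0.58 for *Timp4* to 1.26 for *Adamts8*. In bulk tissue, fewer cells of a type and less RNA per cell cannot be told apart, and the summed cardiomyocyte markers moved with the groups, at 35664 to 41999 TPM in Cre-negative and 30704 to 34901 TPM in Cre-positive ventricles (8 of 8 markers lower, 1 with an unadjusted p under 0.05, and a median log2 fold change of −0.31 that was −0.13, with 7 of 8 lower, without Cre-negative replicate 1). The 4 smooth muscle markers were all higher with Cre, 1 with an unadjusted p under 0.05 in edgeR. Their median log2 fold change was 0.37, and 0.10 without Cre-negative replicate 1. The part of cell makeup in the fold changes of the members was not tested.

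**Figure D2:**
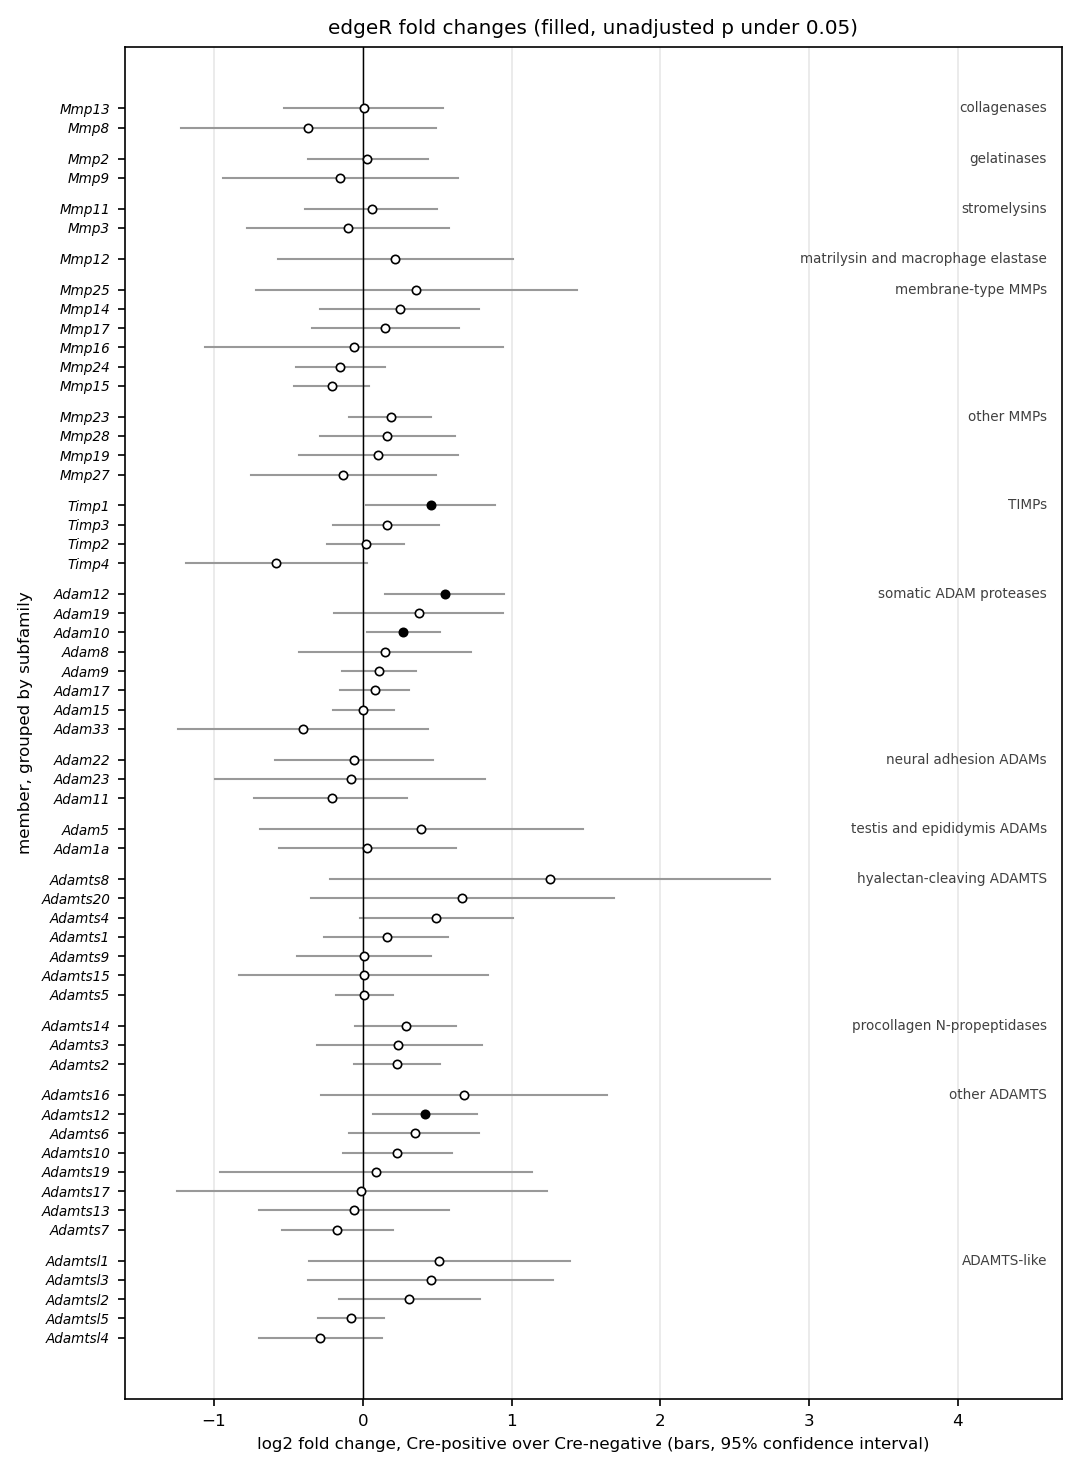
edgeR log2 fold change of Cre-positive over Cre-negative ventricles for each tested member, grouped by subfamily, with its 95% confidence interval (3 ventricles a group). Filled points are the 4 members with an unadjusted p under 0.05, and the intervals of the other 53 members include 0.

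The 4 inhibitors went different ways. *Timp1*, the inducible TIMP and the most abundant member, lies at chrX:20870166-20874737 (GRCm38.p6). Its normalized counts were 1669, 2733 and 2653 in the Cre-negative ventricles and 3530, 2911 and 3245 in the Cre-positive ventricles. Every Cre-positive value was above every Cre-negative value, and Cre-negative replicate 1 was far below the rest. The means were 2352 ± 592.4 and 3229 ± 310.1 (SD, n = 3), with a log2 fold change of 0.46 (SE 0.19, 95% confidence interval 0.02 to 0.89, edgeR adjusted p = 0.714), and the exact two-sided permutation test gave p = 0.1, the smallest that 3 against 3 allows, as it did for every member whose groups did not overlap. Without Cre-negative replicate 1 the log2 fold change was 0.26 (SE 0.09). Per 100 TPM of *Col1a1*, the main fibroblast collagen, *Timp1* was at 15.2, 15.9 and 17.3 TPM in Cre-negative and at 17.2, 18.1 and 17.2 TPM in Cre-positive ventricles, so in that ratio, which was chosen after the values were seen, the groups overlapped.

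*Timp4*, the TIMP best known from heart muscle, had the lowest fold change of all members. Its normalized counts were 353.4, 331.3 and 188.8 without Cre and 243.3, 183.1 and 156.5 with Cre. Cre-negative replicate 3 lay within the Cre-positive range, so the groups overlapped (log2 fold change −0.58, SE 0.26, 95% confidence interval −1.19 to 0.03, edgeR adjusted p = 0.714). The summed cardiomyocyte markers were lower with Cre as well, and their part in the *Timp4* values was not tested. The TPM of *Timp1* was 7.89, 13.9 and 23.9 times that of *Timp4* in the Cre-negative ventricles and 24.4, 26.7 and 34.8 times in the Cre-positive ventricles. This ratio sets the TIMP with the highest fold change over the one with the lowest, so its difference between groups follows from that choice. The nearest values, 23.9 and 24.4, almost met.

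*Timp2*, which also takes part in the activation of proMMP2 by MT1-MMP, and *Timp3*, the TIMP that binds to matrix and also blocks ADAM17, had fold changes closer to 0. *Timp2* varied little, with 6475, 7563 and 7035 normalized counts without Cre and 7323, 6416 and 7597 with Cre and a log2 fold change of 0.02 (95% confidence interval −0.24 to 0.28). *Timp3* had 4046, 3621 and 2949 without Cre and 4619, 3574 and 3632 with Cre, a log2 fold change of 0.16 (95% confidence interval −0.20 to 0.51) that was 0.03 to 0.26 when 1 ventricle was left out. The groups overlapped for both genes. The summed TPM of the 4 TIMPs was 1.17, 1.37 and 1.32 times that of the 20 MMPs in the Cre-negative ventricles and 1.56, 1.39 and 1.40 times in the Cre-positive ventricles.

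Among the collagenases, which can cut intact fibrillar collagen, *Mmp8* and *Mmp13* were listed and both were tested. *Mmp8*, the collagenase stored in neutrophil granules, had 213.2, 81.6 and 89.5 normalized counts without Cre and 106.7, 106.4 and 83.2 with Cre. Cre-negative replicate 1 held the highest value and the other 5 ventricles lay close together (log2 fold change −0.37, SE 0.37). *Mmp13*, the other collagenase, was low and even, with 36.5, 50.1 and 38.9 without Cre and 43.9, 41.6 and 41.1 with Cre (log2 fold change 0.01, 95% confidence interval −0.53 to 0.54).

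The gelatinases cut denatured collagen, and they differed in level, with means of 172.7 TPM for *Mmp2* and 8.54 TPM for *Mmp9*. *Mmp2*, made chiefly by fibroblasts, had 4815, 3791 and 3496 normalized counts without Cre and 4626, 3267 and 4495 with Cre, and the groups overlapped (log2 fold change 0.03, 95% confidence interval −0.37 to 0.44). *Mmp9*, a product of neutrophils and macrophages, had 364.0, 152.4 and 149.9 without Cre and 219.4, 175.7 and 203.5 with Cre. As for *Mmp8*, Cre-negative replicate 1 held the highest value, and without it the log2 fold change went from −0.15 (SE 0.34, and above 0 by limma on TPM) to 0.40 (SE 0.15, unadjusted p = 0.0254 and adjusted p = 0.729 in edgeR).

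Most neutrophil markers had the same ventricle at the top, with 8 of the 9 highest there in normalized counts. The exception was *Csf3r*, which was lowest there, at 12.3 TPM against 17.4 to 25.9 TPM in the other 5. Together the 9 markers summed to 467.9, 89.2 and 49.0 TPM in the Cre-negative ventricles and to 167.0, 67.4 and 150.6 TPM in the Cre-positive ventricles. *Ly6g*, which marks neutrophils in mice, was at 0 in 2 ventricles of each group and highest, at 2.46 TPM, in Cre-negative replicate 1. Of the 7 neutrophil markers tested, 6 were lower with Cre in edgeR (median log2 fold change −0.90; 3 of 7 by limma on log2(TPM + 1)), and without Cre-negative replicate 1, 6 were higher (median 1.48). Their part in the *Mmp8* and *Mmp9* values was not tested.

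*Mmp12*, the macrophage elastase, and *Adam8*, a sheddase of leukocytes, had the same ventricle at the bottom. *Mmp12* had 19.6, 64.5 and 50.6 TPM without Cre and 52.5, 69.9 and 44.5 TPM with Cre, and *Adam8* had 40.3, 79.1 and 87.0 TPM without Cre and 68.9, 104.5 and 72.9 TPM with Cre. The 8 macrophage markers summed to 3092, 4579 and 4975 TPM without Cre and to 4299, 4024 and 4710 TPM with Cre, and their part was not tested. In TPM, Cre-negative replicate 1 was the lowest of the 6 ventricles for both genes and for this sum. In normalized counts it was the lowest for the markers *Adgre1*, *Csf1r*, *Cd68* and *Lyz2*, but not for *Mrc1*, *C1qa*, *C1qb* and *Cd14*. *Mmp12*, *Mmp3* and *Mmp11* fall outside the rule for named genes and are given because of their position or their subfamily, after their values were seen.

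**Figure D3:**
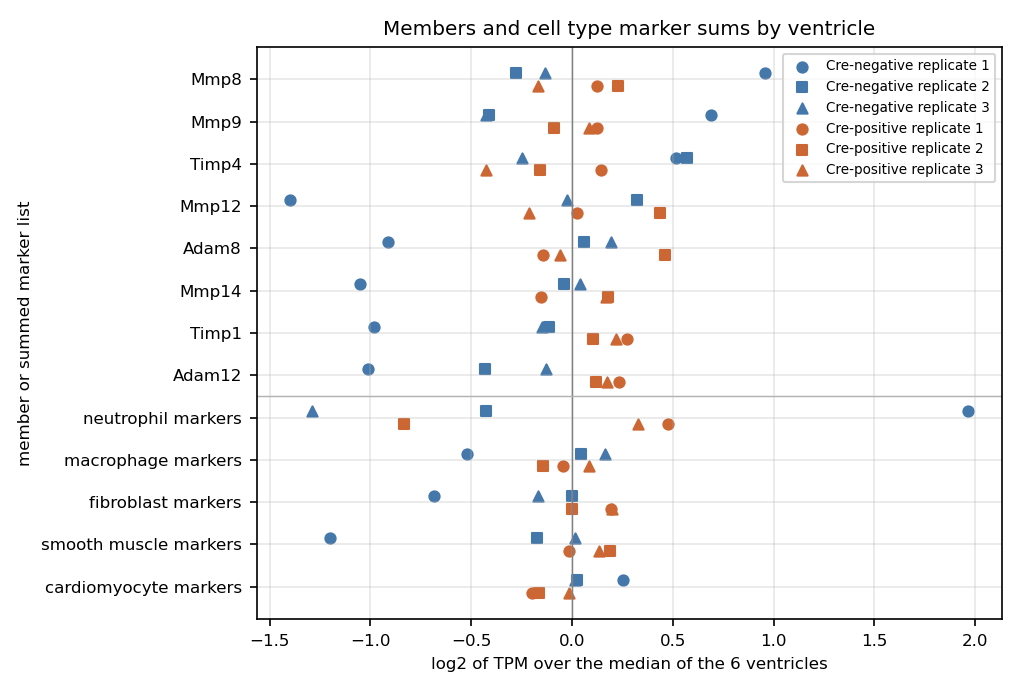
log2 of TPM over the median of the 6 ventricles, for 8 members and for the summed TPM of 5 lists of cell type markers (below the line). Cre-negative replicate 1 (blue circle) is the highest ventricle for *Mmp8*, *Mmp9* and the neutrophil and cardiomyocyte sums. It is the lowest for *Mmp12*, *Adam8*, *Mmp14*, *Timp1*, *Adam12* and the macrophage, fibroblast and smooth muscle sums.

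Of the 20 MMP genes listed, 7 form a cluster on chromosome 9, in the order *Mmp13*, *Mmp12*, *Mmp3*, *Mmp10*, *Mmp8*, *Mmp27* and *Mmp7*, at chr9:7272514-7699585. The cluster ends 232.4 kb before *Yap1*, whose floxed alleles all 6 mice carried. Its members did not share a level: *Mmp12* averaged 50.3 TPM and *Mmp8* 5.98 TPM, *Mmp10* had 0 to 5 counts per ventricle, and *Mmp7*, matrilysin, had 1 count in 1 ventricle. The 5 that were tested had log2 fold changes from −0.37 (SE 0.37) for *Mmp8* to 0.22 (SE 0.34) for *Mmp12*, and without Cre-negative replicate 1 these were 0.20 and −0.11. Most of the 7 cluster genes held the same short sequence close to an annotated start. The AP-1 motif TGANTCA reads the same on both strands by its pattern, and it was searched in the 250 bases before each RefSeq start (GRCm38.p6). Of the 7 cluster genes 5 held it, of the 37 other members with a promoter entry only *Adam19* did, and of all 27025 genes with an entry 7.82% did. The last 80 bases before the start are shown for all 7 genes, plus strand, with the AP-1 motif in capitals. That stretch was chosen because the motif lies close to a start in the 5 genes that have it.

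Mmp13: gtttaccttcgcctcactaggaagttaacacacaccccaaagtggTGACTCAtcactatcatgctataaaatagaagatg
Mmp12: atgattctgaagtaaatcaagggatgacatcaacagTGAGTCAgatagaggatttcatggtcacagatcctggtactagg
Mmp3: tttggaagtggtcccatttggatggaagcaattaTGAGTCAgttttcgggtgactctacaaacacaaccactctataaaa
Mmp10: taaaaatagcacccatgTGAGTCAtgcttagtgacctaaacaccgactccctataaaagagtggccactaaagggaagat
Mmp8: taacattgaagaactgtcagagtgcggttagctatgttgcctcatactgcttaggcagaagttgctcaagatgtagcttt
Mmp27: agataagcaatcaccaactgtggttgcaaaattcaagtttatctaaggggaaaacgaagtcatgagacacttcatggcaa
Mmp7: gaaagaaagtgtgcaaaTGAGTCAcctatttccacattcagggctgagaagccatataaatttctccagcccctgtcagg

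The motif began 35 bases before the start in *Mmp13* (chr9:7272434-7272513 is the stretch shown), 44 in *Mmp12* (chr9:7347294-7347373), 46 in *Mmp3* (chr9:7445742-7445821) and 63 in both *Mmp10* (chr9:7502262-7502341) and *Mmp7* (chr9:7692010-7692089). For *Mmp12* and *Mmp7*, which have 2 starts each in the table, the window with the motif is shown. For *Mmp12* that window lies inside the gene (chr9:7344397-7360461), so the start used there is an internal one. *Mmp8* (chr9:7558349-7558428) and *Mmp27* (chr9:7571316-7571395) had no such letters in their windows. A match is a description of the sequence, and these data do not measure binding there.

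For Yap, which binds DNA through TEAD factors, the TEAD motif GGAATG was searched on both strands in the same windows. It was found in 3 of the 44 members with an entry (6.82%), *Timp1*, *Adam19* and *Adamts13*, against 14.4% of all genes, so it was no more frequent among members. The window of *Timp1* (chrX:20869916-20870165, plus strand) is shown because *Timp1* is the most abundant member and its groups did not overlap. The capitals mark the motif, which begins 247 bases before the start.

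Timp1: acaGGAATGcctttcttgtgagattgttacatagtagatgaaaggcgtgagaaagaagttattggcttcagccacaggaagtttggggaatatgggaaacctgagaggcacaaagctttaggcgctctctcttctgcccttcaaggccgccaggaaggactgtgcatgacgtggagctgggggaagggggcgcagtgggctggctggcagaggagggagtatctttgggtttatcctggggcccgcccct

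The stromelysins, which cut many matrix proteins other than fibrillar collagen, were low. *Mmp3* ran from 4.81 to 8.16 TPM and *Mmp11* from 9.05 to 17.2 TPM over the 6 ventricles, and their log2 fold changes were −0.10 (SE 0.29) and 0.06 (SE 0.19), with the signs reversed without Cre-negative replicate 1 (0.19 and −0.14). *Mmp23*, a membrane-anchored MMP in the mixed group of other MMPs, was the most abundant there. It had 646.7, 789.3 and 742.5 normalized counts without Cre and 897.5, 715.0 and 867.7 with Cre, and its groups overlapped through Cre-positive replicate 2 (log2 fold change 0.19, SE 0.12, edgeR adjusted p = 0.714). The log2 fold change of *Mmp23* was 0.11 without Cre-negative replicate 1 and 0.28 without Cre-positive replicate 2. The other 3 tested genes of that group were within −0.13 to 0.16.

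Of the 6 membrane-type MMPs, 3 were higher and 3 lower with Cre. *Mmp14*, which encodes MT1-MMP, a collagenase and the activator of proMMP2, had 2900, 5250 and 5527 normalized counts without Cre and 4826, 5632 and 5763 with Cre. Cre-negative replicate 1 was at 0.525 times the median of the other 5 ventricles, which lay close together. The log2 fold change was 0.25 (SE 0.23, edgeR adjusted p = 0.762), and it was 0.00 (SE 0.09) without that ventricle.

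*Mmp15*, which encodes MT2-MMP, was the member whose Cre-positive values all lay below the Cre-negative ones. Its normalized counts were 2541, 2105 and 2067 without Cre and 1894, 1842 and 2060 with Cre. The nearest values of the groups, 2067 and 2060, almost met (log2 fold change −0.21, SE 0.11, 95% confidence interval −0.46 to 0.04, edgeR adjusted p = 0.714; −0.11 without Cre-negative replicate 1). *Mmp24*, *Mmp17*, *Mmp16* and *Mmp25* were at 9.91 TPM or less in every ventricle.

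Of the 8 tested ADAMs that are active proteinases in somatic tissues, 7 were higher with Cre (6 with DESeq2's size factors, against 51.2% of all genes in edgeR) and 2 had an unadjusted p under 0.05, both higher (against 2.85% of all genes). In either direction, the latter count was 0 without Cre-positive replicate 1 (against 3.98% of all genes) and 4 without Cre-negative replicate 3 (against 9.61%). Of these 4, *Adam10*, *Adam12* and *Adam19* were higher with Cre and *Adam33* was lower. The *Adam33* normalized counts kept there were 111.9 and 80.6 without Cre and 63.8, 50.9 and 59.7 with Cre. *Adam12* (chr7:133883199-134225097), a sheddase found in mesenchymal cells, had the smallest unadjusted p of all members. Its normalized counts were 593.7, 800.2 and 981.9 without Cre and 1258, 1078 and 1151 with Cre. The groups did not overlap, and the spread was larger without Cre. The means were 791.9 ± 194.2 and 1162 ± 90.5 (SD, n = 3), with a log2 fold change of 0.55 (SE 0.17, 95% confidence interval 0.15 to 0.95, edgeR unadjusted p = 0.0137, adjusted p = 0.714). It kept an unadjusted p of at most 0.0502 in all 13 alternative settings, with log2 fold changes from 0.38 to 0.74.

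*Adam10* (chr9:70678944-70780229), the main sheddase of Notch and cadherins, was more even. It had 1158, 1286 and 1465 normalized counts without Cre and 1536, 1633 and 1556 with Cre, with no overlap (log2 fold change 0.27, SE 0.10, edgeR adjusted p = 0.714). Per 100 TPM of *Col1a1*, *Adam12* was at 0.49 to 0.671 TPM without Cre and 0.638 to 0.703 TPM with Cre, and *Adam10* at 1.32 to 1.87 and 1.32 to 1.79 TPM, so both overlapped in that ratio. The 8 fibroblast markers, *Col1a1* among them, summed to 4511, 7259 and 6469 TPM without Cre and to 8314, 7259 and 8337 TPM with Cre (7 of 8 higher in edgeR, 8 by limma on TPM, and 1 with an unadjusted p under 0.05), and their part in the values of these genes was not tested.

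*Adam15*, which has been linked to cell adhesion through integrins, was the most abundant and the most even ADAM. It had 3434, 3436 and 3213 normalized counts without Cre and 3564, 3260 and 3290 with Cre, a log2 fold change of 0.00 (95% confidence interval −0.20 to 0.21). *Adam9*, another widely expressed sheddase, had 1688, 2016 and 2081 without Cre and 1992, 2230 and 2007 with Cre (log2 fold change 0.11, SE 0.11, and 0.02 without Cre-negative replicate 1). *Adam8* had a log2 fold change of 0.15 (SE 0.25). The groups overlapped for all of them.

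The 3 ADAMs without protease activity that act in neural adhesion, *Adam11*, *Adam22* and *Adam23*, were all lower with Cre, whereas 51.2% of all genes were higher. Their log2 fold changes were from −0.21 to −0.06 (2 of 3 were higher by limma on TPM). All were higher without Cre-negative replicate 1, where the median was 0.24. Of the ADAMs known from testis and epididymis, 8 were listed and 2 tested, *Adam1a* and *Adam5*, both under 2.5 TPM in every ventricle.

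The proteoglycan-cleaving ADAMTS enzymes had log2 fold changes above 0 in 7 of 7 genes (against 51.2% of all genes), from 0.01 to 1.26, with 0 at an unadjusted p under 0.05 and 0 whose groups did not overlap. *Adamts5*, *Adamts9* and *Adamts15* were at 0.01, and the count above 0 was 5 with DESeq2's size factors, 4 without Cre-positive replicate 3 and 4 without Cre-negative replicate 3. *Adamts4*, an aggrecanase, had 149.6, 142.5 and 244.3 normalized counts without Cre and 229.4, 243.3 and 284.7 with Cre. Cre-negative replicate 3 lay among the Cre-positive ventricles (log2 fold change 0.49, SE 0.22, 95% confidence interval −0.02 to 1.01, edgeR adjusted p = 0.714; 0.79 without Cre-negative replicate 3).

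*Adamts8* (chr9:30942562-30963838), a relative of the aggrecanases, had the highest fold change of all members through 1 ventricle. Its normalized counts were 139.0, 191.7 and 108.0 without Cre and 750.9, 139.7 and 160.4 with Cre. Cre-positive replicate 1 was several times above every other ventricle, and the other 5 overlapped. The log2 fold change of 1.26 (SE 0.64, edgeR adjusted p = 0.714) became 0.04 (SE 0.26) without it. That ventricle also had the highest *Myh1*, a fast skeletal muscle myosin, at 16.1 TPM against 0.11 TPM or less in the other 5, though not the highest sum of the 4 skeletal muscle markers (4056 TPM, against 4426 TPM in Cre-negative replicate 1), most of which is *Acta1* and *Ckm*, genes that heart muscle also expresses. It had the highest sum of the 4 atrial markers, at 16600 TPM against 6881 to 9833 TPM, and *Nppa* made up most of it (14404 TPM). The atrial marker *Myl7* was at 492.1, 306.1 and 61.1 TPM without Cre and at 610.7, 18.1 and 184.5 TPM with Cre. The part of these markers in the *Adamts8* value was not tested. *Adamts15*, whose gene lies 20.1 kb before that of *Adamts8*, did not stand out in Cre-positive replicate 1, with 12.6, 9.22 and 7.45 TPM without Cre and 12.3, 5.65 and 14.2 TPM with Cre.

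The 3 procollagen N-propeptidases, which trim the amino end of fibrillar procollagens, all had log2 fold changes above 0 (against 51.2% of all genes), from 0.23 to 0.29. Single ventricles moved these values, to 0.05 for *Adamts3* without Cre-positive replicate 1, to 0.12 for *Adamts2* without Cre-negative replicate 1 and to 0.17 for *Adamts14* without Cre-negative replicate 2. *Adamts2*, the main enzyme of the group and at 68.5 TPM the most abundant ADAMTS, had 2942, 3703 and 3719 normalized counts without Cre and 4381, 3663 and 4116 with Cre. The groups overlapped through Cre-positive replicate 2 (log2 fold change 0.23, SE 0.13, edgeR adjusted p = 0.714). *Adamts14* had 161.4, 123.9 and 160.6 without Cre and 186.5, 186.8 and 170.2 with Cre, with no overlap (log2 fold change 0.29, SE 0.15, edgeR adjusted p = 0.714).

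Of the 8 other ADAMTS genes tested, 5 were higher and 3 lower (7 and 1 by limma on TPM). *Adamts12* (chr15:11064773-11349232), which cleaves cartilage oligomeric matrix protein, had 124.9, 166.1 and 148.9 normalized counts without Cre and 209.4, 205.3 and 175.1 with Cre. The groups did not overlap (means 146.6 ± 20.7 and 196.6 ± 18.7, SD, n = 3), and the log2 fold change was 0.42 (SE 0.15, 95% confidence interval 0.07 to 0.77, edgeR unadjusted p = 0.0252, adjusted p = 0.714). *Adamts6*, a regulator of fibrillin microfibrils, had 93.1, 133.7 and 146.9 without Cre and 158.6, 148.9 and 169.2 with Cre, also without overlap (log2 fold change 0.35, SE 0.19, edgeR adjusted p = 0.714; 0.17 without Cre-negative replicate 1). The seventh member without overlap was *Adamts16*, singled out after its values were seen, with 16.5, 63.9 and 49.6 without Cre and 71.8, 69.4 and 69.5 with Cre (log2 fold change 0.68, SE 0.41, edgeR adjusted p = 0.714; 0.30 without Cre-negative replicate 1).

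**Figure D4:**
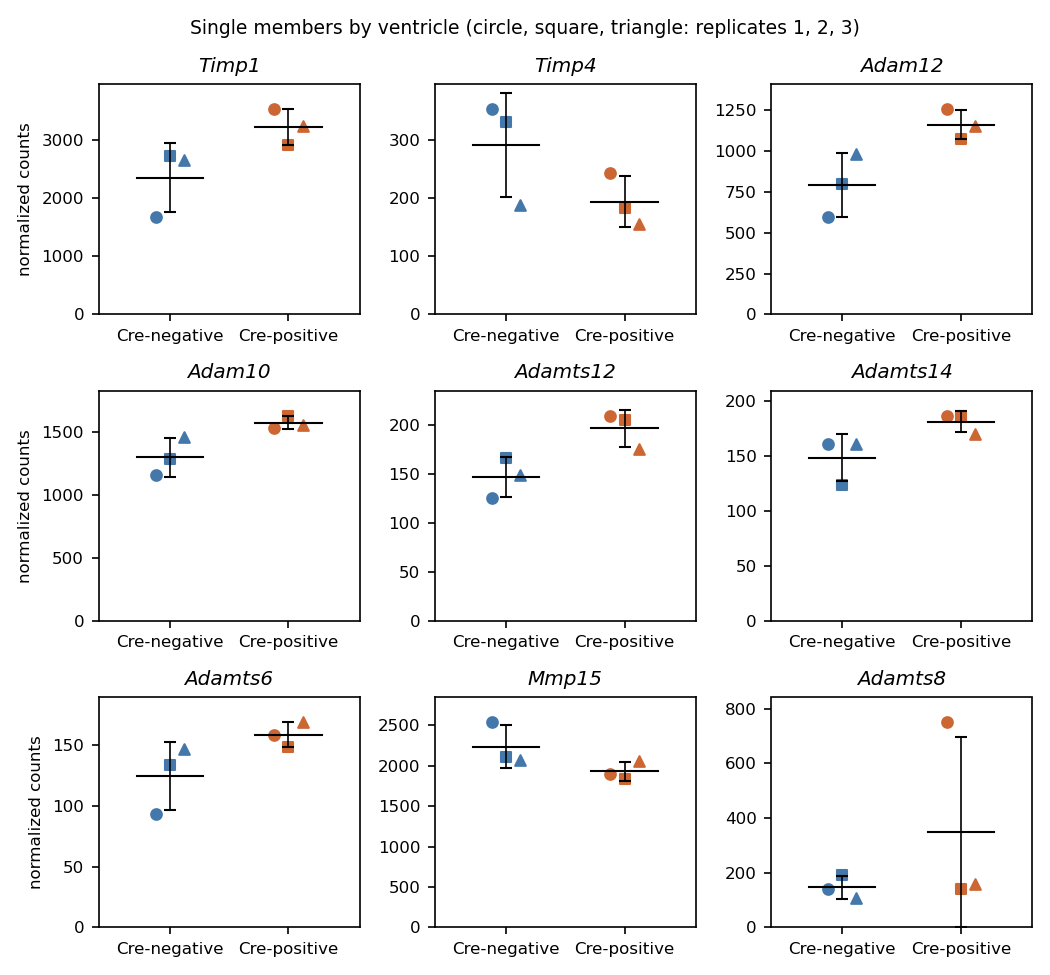
Normalized counts of 9 members in each ventricle, with the mean (line) and SD (bar) of 3 ventricles a group and an axis that starts at 0. The Cre-positive points of *Timp1*, *Adam12*, *Adam10*, *Adamts12*, *Adamts14* and *Adamts6* lie above the Cre-negative points, those of *Mmp15* below, and *Adamts8* is high in Cre-positive replicate 1 alone.

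Among the 5 ADAMTS-like genes, whose products attach to fibrillin microfibrils, 3 were higher and 2 lower with Cre (4 and 1 by limma on TPM, where *Adamtsl5* was above 0). *Adamtsl5* was the most abundant and nearly constant, with 2432, 2138 and 2240 normalized counts without Cre and 2306, 2112 and 2032 with Cre (log2 fold change −0.08, 95% confidence interval −0.30 to 0.14). The other 4 genes were between −0.29 and 0.51. Without Cre-negative replicate 1, *Adamtsl1* had the smallest unadjusted p of the members, with a log2 fold change of 0.99 (SE 0.29, edgeR unadjusted p = 0.00876, adjusted p = 0.729), and it is named after that value was seen.

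The 11 members below the filter were *Mmp7*, *Mmp10*, *Mmp21*, *Adam1b*, *Adam4*, *Adam6b*, *Adam21*, *Adam28*, *Adam30*, *Adam32* and *Adamts18*. None of them exceeded 7 counts in any ventricle. A count of 0 allows up to 3 counts, which is 2.77 to 3.53 normalized counts by library, for counting error only. In 9 members some counts were not whole, *Adam1a*, *Adam1b*, *Adam28*, *Mmp14*, *Mmp17*, *Mmp19*, *Mmp28*, *Adamts2* and *Adamts13*, so the assignment of part of their reads was estimated and is less certain.

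Of 31 listed genes of the same pathways (activators, other inhibitors, ADAM partners, substrates, and the inducer, partner and relatives of members), 25 were tested, 18 were higher with Cre (against 51.2% of all genes), 0 had an adjusted p under 0.05 in edgeR, and 2 had an unadjusted p under 0.05, both higher (against 2.85% of all genes). The median log2 fold change of the 25 was 0.15. The fold changes farthest from 0 were those of *Lcn2*, whose product binds MMP9, at −2.07 (SE 1.05), and of *Spock2*, a proteoglycan, at −1.18 (SE 0.54), both with an edgeR adjusted p of 0.714 and both named after their values were seen. Both were highest in Cre-negative replicate 1, with 499.7 TPM against 24.9 to 87.8 TPM for *Lcn2* and 17.6 TPM against 3.65 to 5.18 TPM for *Spock2*. *Rhbdf2*, which encodes iRhom2, needed for the maturation of ADAM17, had 478.2, 553.4 and 527.4 normalized counts without Cre and 648.2, 662.2 and 640.8 with Cre, with no overlap (log2 fold change 0.32, SE 0.09, edgeR unadjusted p = 0.00626, adjusted p = 0.714). *Adam17* itself had 21.1, 23.8 and 27.0 TPM without Cre and 23.8, 29.7 and 29.1 TPM with Cre (log2 fold change 0.08, SE 0.10). *Vcan*, versican, a substrate of the proteoglycan-cleaving ADAMTS enzymes, had 1094, 1463 and 1422 without Cre and 1681, 1724 and 1682 with Cre (log2 fold change 0.35, SE 0.12, edgeR unadjusted p = 0.0196, adjusted p = 0.714). The convertases, plasminogen activators and receptor that activate proMMPs were within −0.12 to 0.29.

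Cre-negative replicate 1 bore on many members at once. It held the highest normalized count of the 6 ventricles for 18 members and the lowest for 24. Without it, 5 members (8.77%, against 3.58% of all genes in that direction) had an unadjusted p under 0.05 and a log2 fold change above 0 in edgeR, namely *Adam12*, *Timp1*, *Adamtsl1*, *Mmp9* and *Adamts9*, of which *Adam12* and *Timp1* were among the 4 with all ventricles. *Adam10* then had 0.19 (unadjusted p = 0.0508) and *Adamts12* 0.32 (unadjusted p = 0.0571). Without Cre-positive replicate 1, only *Timp4* had an unadjusted p under 0.05, lower with Cre (1.75% of members, against 1.85% of all genes in that direction).

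**Figure D5:**
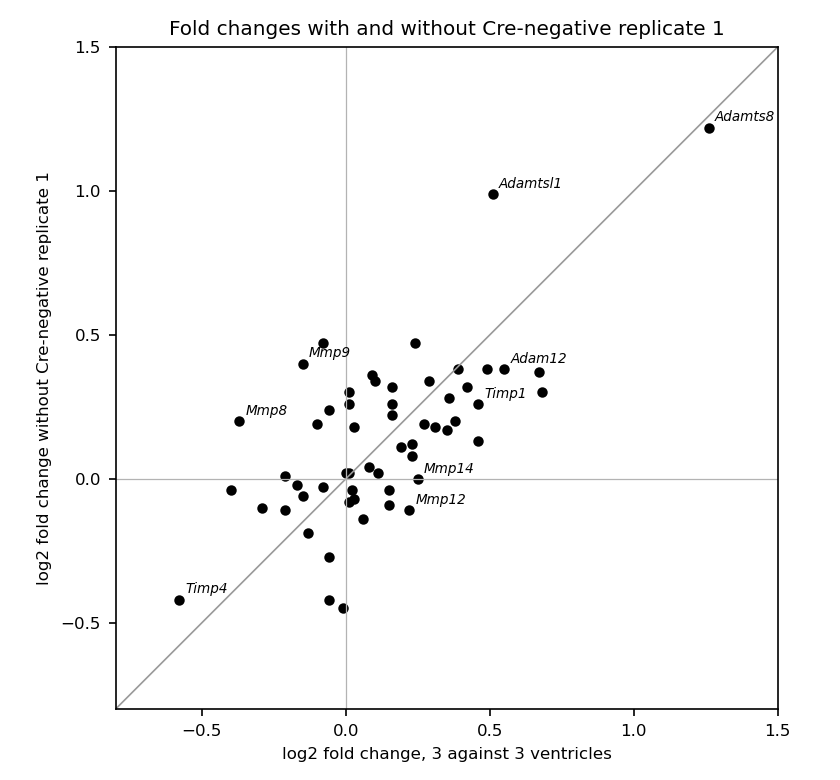
edgeR log2 fold change (Cre-positive over Cre-negative) of the 57 tested members with all 6 ventricles (horizontal) and without Cre-negative replicate 1 (vertical). Points are genes and the diagonal marks equal values. *Mmp8* and *Mmp9* move from below 0 to above it, *Mmp14* moves from 0.25 to 0.00, and *Timp1* and *Adam12* stay above 0 at 0.26 and 0.38.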

How the data were processed

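RNA of 6 left ventricles was extracted with TRIzol and made into libraries by BGI Americas. The authors deposited estimated counts, TPM and FPKM per gene and ventricle. The submitters' processing notes name Bowtie2 2.2.5, RSEM 1.2.12 and build GRCm38.p6, and the annotation is not given in the sources used here. TPM and FPKM carry the authors' scaling for gene length, and FPKM was not used. A deposited table of the authors' own fold changes, p-values and q-values was not used. All per-sample columns matched a label (0 left over).

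The estimated counts, of which 11.5% were not whole (beyond 0.001), were rounded and tested for all genes with edgeR 4.0.16 (R 4.3.3; filterByExpr, minimum count 10 and total 15; TMM; quasi-likelihood test; Benjamini-Hochberg over 13817 genes), Cre-positive against Cre-negative, 3 against 3. Normalized counts are TMM counts at the mean effective library of 14293745. A log2 fold change is a difference between groups on that scale. On simulated counts the test called 69 of 99 genes changed 2-fold, 96 of 100 genes changed 4-fold and 18 of 13493 unchanged genes. Alternatives used DESeq2 1.42.0 and limma 3.58.1. Single members were also compared by an exact permutation test in scipy 1.17.1 (Python 3.11.15). The labels call the mice siblings and name no litters. Positions of all 68 members and promoters of 44 are from RefSeq (GRCm38.p6).

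Named members were the 12 with the highest mean TPM, the 10 with the smallest unadjusted p, and each TIMP, collagenase and gelatinase past the filter, and pathway genes were named at an unadjusted p under 0.05. The members and lists were chosen with earlier results of these data known. The depth of 13177888 to 14827579 counts per ventricle bears on low members most, and the 3 ventricles a group limit the precision of the others.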

Additional observations from a re-analysis of the deposited data

How the results depend on the processing

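No member had an adjusted p under 0.05 in any of the settings tried, nor one under 0.1 in edgeR. The number with an unadjusted p under 0.05 was 4 in edgeR and with DESeq2's size factors, 5 in DESeq2's Wald test (8.77%, against 5.88% of all genes), 6 without a filter (8.82%, against 5.41%) and 4 at a mean of at least 50 counts (8.16%, against 6.01%), and *Adam12*, *Adamts12*, *Adam10* and *Timp1* were among them each time. It was 7 by limma on log2(TPM + 1) and 7 on log2(TPM + 0.1) (12.3%, against 7.23% and 7.03% of all genes), where the median of all genes was itself 0.109 and 0.125 instead of 0.006, and the median of the members 0.166 and 0.234, against 0.105 in edgeR and 0.043 to 0.175 when 1 ventricle was left out. Leaving out 1 ventricle gave 1 to 8 members, 1 without Cre-positive replicate 1 (1.75%, against 3.98% of all genes) and 8 without Cre-negative replicate 3 (14.0%, against 9.61%). The replicate block gave 8 (14.0%, against 8.81%), and the 4 in edgeR were 7.02%, against 5.83% of all genes. Whether the replicate numbers pair the mice is not known, because the labels name no litters. Deviations of same-numbered ventricles correlated at 0.354, 0.0726 and −0.0318, and not every ventricle correlated best with its own number. With 3 ventricles a group, these correlations cannot decide it.

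Of the 23 members named by the rule, 15 kept their sign in every setting. For the others, *Mmp13* was −0.001 in DESeq2's Wald test, *Mmp9* 0.072 and 0.088 by limma (pseudocounts 1 and 0.1), *Adam15* −0.005 with DESeq2's size factors and −0.005 in its Wald test, and *Adamtsl5* 0.038 in both limma fits. Leaving out 1 ventricle moved the log2 fold change over −0.607 to 0.203 for *Mmp8*, −0.081 to 0.160 for *Mmp13*, −0.059 to 0.177 for *Mmp2*, −0.364 to 0.396 for *Mmp9*, −0.041 to 0.086 for *Timp2*, −0.037 to 0.028 for *Adam15* and −0.092 to 0.329 for *Adam8*. The cause was not tested. Depth limits the members under the filter, which had at most 7 counts a ventricle.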
